A study of Mus musculus with 40 samples.

Results

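The Hox genes, which encode the homeodomain transcription factors that give cells along the body axis their positional identity, were examined as 39 of the 21938 protein-coding genes of the annotation. Members were taken by name alone, as every protein-coding gene of the GENCODE M21 annotation of mm10 called Hoxa, Hoxb, Hoxc or Hoxd and a number. They lie in 4 clusters, with 11 genes in HoxA on chromosome 6, 10 in HoxB on chromosome 11, 9 in HoxC on chromosome 15 and 9 in HoxD on chromosome 2. For each gene the span from 2 kb upstream of its start to its end was read for H3K27ac peaks, for the length under peaks in kb, and for the rank of its best peak by −log10 q among all peaks of the same library.

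H3K27ac, the acetylated form of histone H3 at lysine 27, was profiled by ChIP-seq in primary preadipocytes from the inguinal white adipose tissue (iWAT) of adult C57BL/6 mice. WT cells were compared with DKO cells from Hmgn1-/- Hmgn2-/- mice, a constitutive loss of both nucleosome-binding proteins in every tissue. Preadipocytes were collected at day 0, and cells of both genotypes received the same induction, with insulin, dexamethasone, IBMX, T3 and rosiglitazone, then insulin and T3, and were collected while differentiating at days 3 and 6 and as brown-like adipocytes at day 9. Each of the 8 groups held 3 libraries, 24 in all, and whether a replicate came from 1 animal or from pooled animals was not given in the sources used here.

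Hox genes are laid out along each cluster in the order in which they act along the embryo, with low-numbered genes at the anterior-acting end and high-numbered genes at the posterior-acting end. In adult connective tissue and fat, cells keep a depot-specific set of active Hox genes, and Polycomb proteins keep the rest silent. H3K27ac marks active promoters and enhancers and cannot coexist with the Polycomb mark on the same residue.

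The lists held 47448 to 115923 peaks that covered 20.7 to 96.4 Mb. The covered length itself differed with genotype: DKO libraries covered on average 33.2% more than WT libraries at day 0 and 16.4% more at day 9, and the mean covered length decreased by 21.6% at day 3 and by 46.4% at day 6 in DKO against WT, so counts of genes below are given with the share of all genes. DKO day 0 replicate 2 stood apart, with a median peak width of 1076 bp against 313 to 376 bp in the other libraries and a narrowest peak of 440 bp against 155 to 165 bp. Whether it was called with other settings was not given in the sources used here. Without it DKO libraries covered on average more than WT at day 0 by 4.48%. WT day 3 replicate 3 was the shallowest, with an estimated background of 4.5 reads per kb against 8.61 to 12.8. The deleted gene Hmgn2 had a peak in 12 of 12 WT and 0 of 12 DKO libraries, while Hmgn1 had one in 12 of 12 of each, so the peaks check the label at Hmgn2 alone. Of the markers, Pdgfra, a stromal progenitor receptor, had a peak in 24 of 24 libraries and Ucp1, the defining brown-fat uncoupling protein, in 0 of 24, also at day 9. Of the 7 brown markers Ucp1 was the only one with a peak in 0 libraries, while Ppargc1a had one in 24. In the test between days 0 and 9 described below, 4 of 6 brown markers rose and 0 fell. Of all genes 13.7% rose and 12.7% fell. The summed length over 6 immune markers at day 0 lay between 17.5 and 19.0 kb in WT libraries and between 20.8 and 42.0 kb in DKO libraries. By day 9 it lay between 5.08 and 6.43 kb in WT libraries and, without overlap, between 7.08 and 8.37 kb in DKO libraries, with the T cell marker Cd3e at 0 in every library. The day 9 mean was higher in DKO for Csf1r, Adgre1 and Cd68 but not for Ptprc, at 0.113 kb in WT and 0 kb in DKO. Of all genes 28.5% were higher in DKO without overlap at day 9. In such bulk cultures fewer cells with the mark and less mark per cell cannot be told apart.

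The sequences of 4 stretches are given as examples of marked and unmarked Hox DNA, printed from RefSeq (GRCm38.p6) with each CG dinucleotide in capitals. The first is the 150 bp window in HoxC (chr15:102991235-102991384, plus strand, outside any Hox exon, within the Hoxc8 gene and the long Hoxc5 transcript) that held a summit among the 5 best-ranked HoxC peaks in 21 of 24 libraries. The second is the equivalent HoxB window (chr11:96284251-96284400, plus strand, in the Hoxb8 exon that codes for its homeodomain), with such a summit in 18 libraries. The last are the 300 bp promoter windows of Hoxa9 (chr6:52227321-52227620, minus strand) and Hoxa5 (chr6:52204538-52204837, minus strand), both in HoxA, of which the first lay under a peak in 24 of 24 libraries and the second in 0.
HoxC summit window: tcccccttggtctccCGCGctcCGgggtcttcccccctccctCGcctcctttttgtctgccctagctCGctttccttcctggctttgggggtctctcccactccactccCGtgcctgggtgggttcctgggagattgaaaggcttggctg
HoxB summit window: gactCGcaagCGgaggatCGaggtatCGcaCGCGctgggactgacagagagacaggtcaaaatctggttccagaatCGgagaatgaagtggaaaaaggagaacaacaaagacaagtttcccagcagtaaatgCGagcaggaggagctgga
Hoxa9 promoter: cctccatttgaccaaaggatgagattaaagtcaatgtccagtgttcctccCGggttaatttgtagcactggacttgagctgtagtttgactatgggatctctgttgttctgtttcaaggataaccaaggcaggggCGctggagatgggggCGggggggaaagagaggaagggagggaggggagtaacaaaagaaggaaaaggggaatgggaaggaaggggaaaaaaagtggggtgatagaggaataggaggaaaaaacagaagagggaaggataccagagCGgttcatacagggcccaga
Hoxa5 promoter: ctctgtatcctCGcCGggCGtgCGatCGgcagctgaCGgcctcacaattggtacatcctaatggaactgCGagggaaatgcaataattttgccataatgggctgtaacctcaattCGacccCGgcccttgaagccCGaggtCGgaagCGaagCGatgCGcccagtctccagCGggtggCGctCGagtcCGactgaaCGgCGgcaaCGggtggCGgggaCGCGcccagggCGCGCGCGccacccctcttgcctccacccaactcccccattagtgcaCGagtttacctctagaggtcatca
The unmarked Hoxa5 promoter held 29 CG dinucleotides, the marked Hoxa9 promoter 4, the HoxB window 8 and the HoxC window 6. RefSeq promoter windows were at hand for 22 of the 39 symbols, in 24 windows, with a median of 14.5 CG against 7 over all 32851 promoter windows. The 13 Hox windows without a peak in any library had a median of 20 CG, and the 3 windows with a peak in every library, those of Hoxa3, Hoxa9 and Hoxb4, had 14. CG content did not sort single windows, since that of Hoxa3, with a peak in 24 libraries, held 20 CG and that of Hoxd4, with a peak in 0, held 4. The CCAAT box, searched on both strands, was in 62.5% of the Hox windows and 37.4% of all windows, and TAATTA, the core bound by many homeodomains, in 8.33% and 5.29%.

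The 4 clusters carried very different amounts of the mark. HoxC was the most covered: over its 120 kb, from 2 kb before Hoxc13 to 2 kb after Hoxc4, between 48.0 and 72.6 kb lay under peaks in each library. HoxA had 17.4 to 30.6 kb of 109 kb and HoxB 12.7 to 47.9 kb of 178 kb. HoxD had at most 2.20 kb of 101 kb, and in its lowest library 0 kb. The ranges of HoxC and HoxD thus did not meet those of the other clusters, although the highest HoxB value, from DKO day 0 replicate 2, came within 1 kb of the lowest HoxC value.

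Within clusters the mark was shared between libraries to unequal degrees. In HoxC, 42.4 kb (35.4%) was under a peak in 24 of 24 libraries, against 13.03 kb (11.9%) in HoxA, 10.1 kb (5.65%) in HoxB and 0 kb in HoxD. The longest such run, 4.94 kb at chr15:102961581-102966522, lay between the bodies of Hoxc11 and Hoxc10 and reached into the upstream part of the Hoxc10 and Hoxc5 spans. Bases without a peak in any library made up 30.7% of HoxC, 61.4% of HoxA, 64.5% of HoxB and 96.0% of HoxD.

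Long unmarked runs lay at the posterior ends of 3 clusters. The posterior side of HoxB with Hoxb13 was bare over 58.2 kb (chr11:96192316-96250537), HoxD from Hoxd13 to the edge of Hoxd9 over 31.7 kb (chr2:74666310-74698016), and the Hoxa13 side of HoxA over 16.3 kb (chr6:52246535-52262880). HoxC differed, with its longest bare runs of 11.7 kb over Hoxc13 and 10.4 kb between Hoxc12 and Hoxc11. The anterior ends of HoxB and HoxD were bare too, at Hoxb1 (14.96 kb) and Hoxd1 (17.1 kb). Hoxc4, at the anterior end of HoxC, had a peak in 24 of 24 libraries. A gap of 9.98 kb over Hoxa5 (chr6:52198063-52208037) broke the marked part of HoxA.

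**Figure D1:**
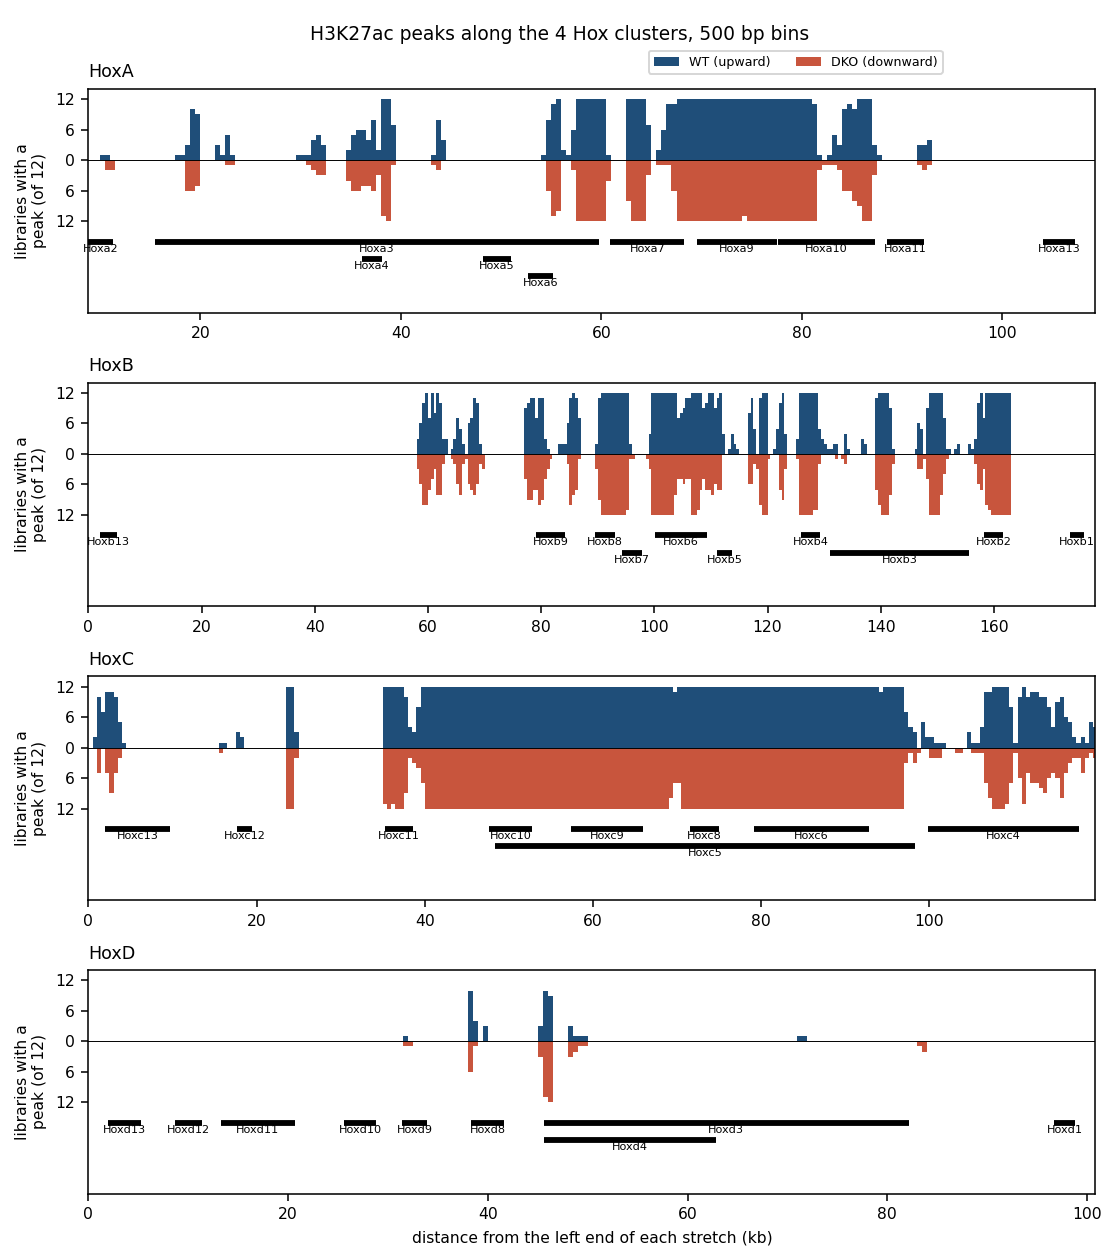
Number of the 12 WT libraries (upward) and the 12 DKO libraries (downward) with a peak in each 500 bp bin (vertical axis) against distance from the lower-coordinate end of each stretch in kb (horizontal axis), for the 4 clusters (HoxA without its first stretch), with gene bodies as black bars beneath. HoxC is filled over most of its middle, HoxA and HoxB are filled in parts, and HoxD holds a few narrow peaks, most often at the shared start of Hoxd3 and Hoxd4 and at Hoxd8.

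Of the 39 genes, 19 (48.7%) had a peak in 24 of 24 libraries, and 49.9% of all protein-coding genes did. They included Hoxa3, Hoxa4, Hoxa7, Hoxa9 and Hoxa10, then Hoxb2, Hoxb3, Hoxb4, Hoxb6, Hoxb7 and Hoxb8, and Hoxc4, Hoxc5, Hoxc6, Hoxc8, Hoxc9, Hoxc10 and Hoxc11, with none from HoxD. Another 9 (23.1%) had a peak in 0 of 24, against 28.9% of all genes: Hoxa5, Hoxa13, Hoxb1, Hoxb13, Hoxd1, Hoxd10, Hoxd11, Hoxd12 and Hoxd13. The group 13 genes, which act in the distal limb and the genital and hindgut region, were thus absent from every list in 3 clusters, while Hoxc13, known from hair and nail, had a peak in 22 libraries. The share of Hox genes at either end was close to that of all genes.

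The other 11 genes had peaks in some libraries. Hoxa6, Hoxb5, Hoxb9, Hoxd3 and Hoxd4 missed 1 library each, Hoxd8 had a peak in 17, Hoxa11 in 8, Hoxc12 in 6, Hoxa2 in 4 and Hoxd9 in 2. Hoxa2, a hindbrain and neural crest gene, and Hoxd9 were seen at day 9 only, each in libraries of both genotypes. Their peaks were weak: at the Hoxd9 summits 9 reads were stacked, and at the Hoxa2 summits a median of 12, against 90.5 at Hoxc8. Hoxd3 and Hoxd4 share a start region, so both read the same peaks and count as 1 region.

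Several spans overlap, because the annotation holds long transcripts. Hoxc5 covers the whole of Hoxc6, Hoxc8 and Hoxc9 and most of Hoxc10, and Hoxa3 covers Hoxa4, Hoxa5 and Hoxa6 and runs into Hoxa7. Spans of protein-coding genes outside the Hox set overlap some members as well. With only the bases that no other protein-coding gene span covers, 18 genes rather than 9 had a peak in 0 libraries. Hoxa3, Hoxa4, Hoxa6, Hoxc6, Hoxc8, Hoxc9, Hoxd3 and others then had few or no bases of their own. A peak is therefore evidence for the stretch, and which gene it serves was not tested.

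The central HoxC genes were among the most completely marked genes of the genome. The median share of the span under peaks was 97.3% for Hoxa9, first of 21938 genes, 97.1% for Hoxc9, which was second, and 96.4% for Hoxc6 in place 3. Hoxc10 followed at 94.6% in place 6, Hoxc5 at 92.0% in place 11 and Hoxc8 at 84.5% in place 29. Hoxa9, Hoxc9 and Hoxc10 are posterior patterning genes, and Hoxc8 and Hoxc10 are known from white fat, where they oppose the brown programme.

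Rank within a library, which does not use the length under peaks, put 5 HoxC genes first among the members. The best Hoxc8 peak had a median rank at 0.326% of its list, from rank 13 in the highest library to rank 3680 in the lowest, and the best peak in the Hoxc5 span, often the same one, was at 0.258%. Hoxc10 was at 0.612%, Hoxc6 at 0.739% and Hoxc9 at 0.825%. The ranges of these 5 over libraries overlap.

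Outside HoxC the best-ranked were Hoxa9 at 2.30% and Hoxa10 at 2.45%, which share a peak in several libraries, and Hoxb8 at 2.94%. Hoxa4 was at 23.2%, Hoxb5 at 40.0% and Hoxd3 at 42.6%. Over the 19 Hox genes with a peak in every library the median best rank was at 3.85% and the median length 4.56 kb, against 7.24% and 2.12 kb over the 10954 genes with a peak in every library.

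**Figure D2:**
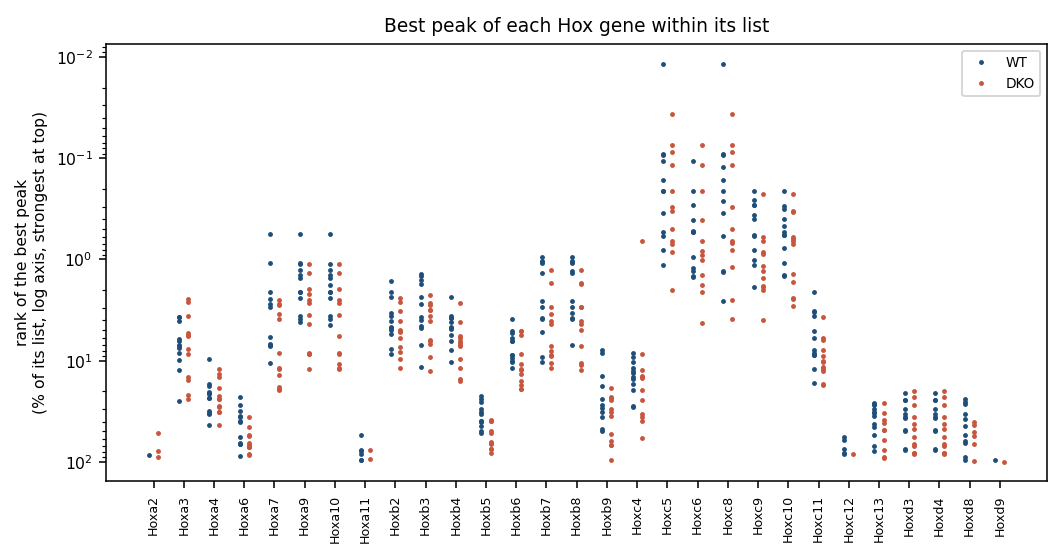
Best within-list rank of each Hox gene as a percentage of the list (vertical log axis, strongest at the top) for Hox genes with a peak (horizontal axis), 1 point for each library with a peak, WT and DKO in different colours. Hoxc5, Hoxc6, Hoxc8, Hoxc9 and Hoxc10 sit at the top, within the first 5% of the list in every library, and Hoxd9, Hoxa2, Hoxa11 and Hoxc12 have few points, near the bottom.

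Non-coding genes of the clusters ranged from marked in every library to bare. Of the 25 annotated, Hoxaas3 in HoxA and Hoxb5os and Hoxb3os in HoxB, all antisense RNAs, had a peak in their bodies in 24 libraries. Hotair, the HoxC RNA between Hoxc12 and Hoxc11 known to work with Polycomb, had one in 0 of 24, and Haglr in HoxD in 2, both DKO. The mean length in Hoxb5os at day 6 was 8.40 kb in WT against 3.62 kb in DKO, whose covered length was then on average lower by the 46.4% given above.

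The clusters also encode miRNAs that target Hox mRNAs, and their mature 5′ arms or, for Mir615, the 3′ arm, are shown with the seed (bases 2 to 8) in capitals, because some copies lay under a peak and others did not.
miR-196a-5p: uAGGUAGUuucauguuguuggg
miR-196b-5p: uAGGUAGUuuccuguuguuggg
miR-10a-5p: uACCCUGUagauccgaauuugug
miR-10b-5p: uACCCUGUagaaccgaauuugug
miR-615-3p: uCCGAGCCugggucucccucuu
The miR-196 family shares 1 seed and has 3 loci. Mir196a-2 in HoxC (chr15:102973365-102973386) and Mir196b in HoxA (chr6:52230129-52230150), the latter inside Hoxa9, lay under a peak in 24 libraries, and Mir196a-1 in HoxB (chr11:96265187-96265208), which encodes the same mature sequence as Mir196a-2, in 0. The miR-10 family, with another seed, had 0 libraries at both Mir10a in HoxB and Mir10b in HoxD. The Mir615 arm in HoxC lay under a peak in 12 of 12 WT and 9 of 12 DKO libraries. A peak over these loci says nothing of the level of the miRNA.

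The question whether HMGN loss altered the mark at Hox genes was first asked over the 4 days together. The DKO minus WT difference in kb was averaged over the days and compared with all 160000 relabellings within days, for which the smallest p is 1.25e-05, two-sided, with Benjamini-Hochberg adjustment over 15605 genes. None of the 30 Hox genes with a peak passed an adjusted p of 0.05 in this exact permutation test, and of all genes tested 0.0192% were called higher and 0.115% lower. At an unadjusted p under 0.05 the count was 11 Hox genes, all lower in DKO, against 870 lower and 591 higher of all genes. The median difference over the Hox genes was -0.249 kb against -0.00608 kb over all genes, with 25 lower and 5 higher. With each length divided by its library's covered length, 14 were lower and 16 higher. With the top 20000 peaks of each library 18 were lower and 2 higher, around summits 19 and 10, and by best rank 28 and 2. The share of all genes with each sign over the 4 days is not given here. By day, with the top 20000 peaks, the DKO mean was lower in 8.72% of all genes at day 0 and 67.4% at day 3. It was lower in 84.7% at day 6 and 29.8% at day 9.

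The 3 smallest p-values belonged to Hoxb5, a trunk patterning gene, Hoxc13 and Hoxa7, a thoracic patterning gene. Hoxb5 differed by -0.89 kb, with an adjusted p of 0.198 in the exact permutation test. Hoxc13 differed by -0.647 kb with an adjusted exact p of 0.232, and Hoxa7 by -0.915 kb with an adjusted exact p of 0.272. Without the library DKO day 0 replicate 2, 4 Hox genes passed, Hoxa7, Hoxb5, Hoxc9 and Hoxc13, all lower, where 1.16% of 15572 genes were lower.

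Hoxb5 had 1.51, 1.76 and 1.64 kb in WT and 0.366, 2.09 and 0.777 kb in DKO at day 0, and the groups overlapped through the DKO library with wide peaks. At day 3 the WT libraries had 2.19, 1.66 and 1.15 kb and the DKO libraries 0.168, 0.764 and 0.196 kb. At day 6 the values were 1.62, 1.84 and 1.96 kb in WT and 0.205, 0.358 and 0 kb in DKO. Every DKO library was below every WT library at days 3 and 6. At day 9 the groups met again, at 1.40, 1.76 and 2.004 kb in WT and 1.43, 2.35 and 1.10 kb in DKO. Per covered Mb, Hoxb5 was lower in every DKO library at days 0, 3 and 6, at a mean of 32.4 bp in WT and 14.3 bp in DKO at day 0, 37.5 bp in WT and 9.94 bp in DKO at day 3 and 31.4 and 5.22 bp at day 6. Its adjusted p ranged from 0.0029 to 1 over 13 alternatives, all with the same direction and 4 of them past the threshold. The top 20000 peaks of each library are not among these. With them Hoxb5 had 0 kb in both genotypes at every day and could not be tested.

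Hoxc13 had 0.404, 1.06 and 0.578 kb in WT and 0.403, 1.23 and 0.155 kb in DKO at day 0. At day 3 the lengths were 1.17, 1.25 and 0.201 kb in WT, the last from the shallowest library, and 0.157, 0.163 and 0 kb in DKO. At day 6 they were 1.45, 1.34 and 2.17 kb against 0.309, 0.464 and 0 kb. The groups were thus apart at days 3 and 6, per covered Mb as well, where the day 6 means were 28.6 bp in WT and 7.17 bp in DKO. At day 9 they overlapped, with 1.18, 1.14 and 1.63 kb in WT and 1.28, 0.868 and 0.785 kb in DKO.

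Hoxa7 differed over a longer marked stretch. At day 6 it had 5.20, 4.92 and 5.31 kb in WT and 3.35, 3.49 and 3.03 kb in DKO, and at day 9 4.79, 5.40 and 5.02 kb against 4.50, 4.49 and 4.38 kb, without overlap at either day. Per covered Mb its day 6 order turned, with DKO above WT.

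**Figure D3:**
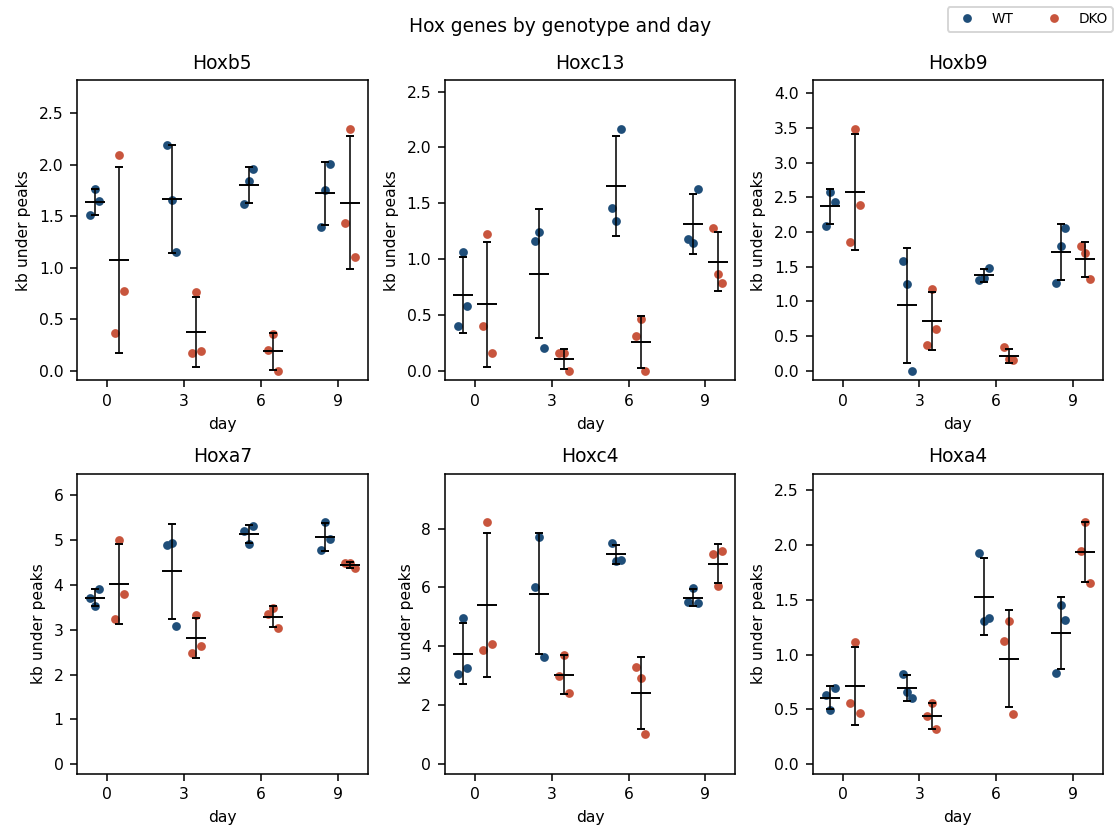
Length under H3K27ac peaks in kb (vertical axis, linear from 0) at days 0, 3, 6 and 9 (horizontal axis) for Hoxb5, Hoxc13, Hoxb9, Hoxa7, Hoxc4 and Hoxa4, 1 point for each library with WT and DKO in different colours and bars for the group mean and SD (n = 3). Hoxb5 and Hoxc13 are lower in every DKO library at days 3 and 6, and Hoxa4 and Hoxc4 are higher in every DKO library at day 9.

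Day by day, Hox genes were lower in DKO in kb mainly at days 3 and 6, the days with less covered length in DKO. At day 0, 0 of 26 Hox genes were lower or higher in DKO without overlap, against 0.701% of all genes lower and 18.9% higher. At day 3, 9 of 28 (32.1%) were lower and 0 higher, against 11.6% and 0.889% of all genes. At day 6, 22 of 27 (81.5%) were lower and 0 higher, against 61.2% and 0.0978%. At day 9, 3 of 30 were lower and 4 higher, against 2.13% and 28.5%. With 3 libraries against 3, the exact permutation p of each such gene is 0.1, the smallest this design can give. At day 6 the 9 preadipocyte and stromal markers summed to between 44.0 and 46.1 kb in WT libraries and between 11.7 and 18.4 kb in DKO libraries, and the part of this in the Hox values was not tested.

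The Hox genes that were lower at day 3 included Hoxa4 in HoxA, and others came from HoxB (Hoxb2, Hoxb4, Hoxb5 and Hoxb8) and HoxC (Hoxc9, Hoxc11 and Hoxc13). The largest differences were those of Hoxb5, at -1.29 kb, and Hoxb2, a hindbrain gene, at -1.16 kb. Hoxb2 had 3.59, 3.64 and 3.14 kb in WT and 2.24, 2.67 and 1.99 kb in DKO, and all 3 WT libraries were above the DKO ones.

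At day 6 the largest differences in kb were in the long spans. Hoxc5, a cervical and thoracic gene, had 48.9, 49.1 and 49.2 kb in WT and 45.8, 46.2 and 39.8 kb in DKO. Hoxc4, at the anterior end of HoxC, had 7.50, 6.91 and 6.95 kb in WT and 3.31, 2.91 and 1.02 kb in DKO. Hoxb6, another thoracic gene, had 6.44, 6.29 and 7.17 kb against 3.73, 3.92 and 2.66 kb. None of these groups overlapped, and DKO day 6 replicate 3, the library with the fewest peaks, was the lowest in all 3 genes.

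Over whole clusters at day 6 the mean length decreased by 20.1% in HoxC, by 28.3% in HoxA and by 46.7% in HoxB, while the covered length of the whole library decreased by 46.4%. These 3 cluster totals did not overlap between genotypes at day 6, and at days 0, 3 and 9 they overlapped. In HoxD, 0.831 kb in WT and 0.516 kb in DKO overlapped. Divided by covered length, HoxA and HoxC were higher in DKO at day 6 and HoxB nearly level.

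Most of the single-gene differences at day 6 depended on this scaling. Per covered Mb, 4 Hox genes were lower at day 6 without overlap, Hoxb5, Hoxb9, Hoxc4 and Hoxc13, and 14 were higher, against 14.8% and 40.0% of all genes. Hoxc4 had a mean of 124 bp per covered Mb in WT and 74.3 in DKO, and Hoxb9, a thoracic gene, 23.9 and 7.18. At day 3, 4 were lower, Hoxa7, Hoxb5, Hoxc4 and Hoxc13, and 0 higher, against 7.80% and 12.7%. At day 0, 9 were lower and 0 higher, against 10.7% and 10.8%. At day 9, 14 were lower and 1, Hoxa4, was higher, against 14.1% and 12.8%. Hoxb5, Hoxc4 and Hoxc13 are the genes that were lower per covered Mb at both day 3 and day 6, and Hoxb5 and Hoxc13 were so in kb as well. The peaks of Hoxb5 and Hoxc13 were weak, with a median best rank at 40.0% and 41.6% of the list. Neither gene had any length in the top 20000 peaks of a library. At day 6 the lists held 47448 to 74867 peaks in DKO and 98503 to 105511 in WT. Whether weak peaks were lost with the shorter lists was not tested, and division by covered length does not settle it.

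At day 9 the genes went both ways in kb. Hoxa4, a cervical gene, had 0.829, 1.45 and 1.31 kb in WT and 1.95, 2.21 and 1.66 kb in DKO, with every DKO library above the WT ones. Hoxc4 had 5.52, 5.98 and 5.47 kb in WT and 7.14, 6.04 and 7.25 kb in DKO, again all higher, after having been lower in every DKO library at day 6. Hoxd3 and Hoxd4 were higher too, at 0.81, 0.991 and 1.22 kb in WT and 1.40, 1.38 and 1.22 kb in DKO, though the closest libraries of the genotypes differed by a few bases.

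Hoxa7, Hoxc9 and Hoxc12 were lower in DKO at day 9. Hoxc12, a posterior gene, had 0.239, 0.322 and 0.258 kb in WT and no peak in the 3 DKO libraries. Hoxc9, a thoracic gene, differed little in size, at 10.5, 10.5 and 10.7 kb in WT and 10.5, 10.4 and 10.3 kb in DKO, near the full length of its span.

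More Hox genes passed the test between days than between genotypes. Day 9 was compared with day 0 over both genotypes, with 400 relabellings within genotype, for which the smallest p is 0.005, and adjustment over 15384 genes. Of 30 Hox genes, 6 were higher at day 9 and 1 lower at an adjusted p of 0.05, against 13.7% of all genes higher and 12.7% lower. The median difference was 0.291 kb over the Hox genes and 0.0322 kb over all genes.

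Those that rose were Hoxa3, Hoxa4, Hoxa6 and Hoxa9 in HoxA and Hoxd3 and Hoxd4 in HoxD. Hoxa3, a neck and hindbrain gene, had 3.89, 5.32 and 4.53 kb in WT at day 0 and 5.37, 7.81 and 6.14 kb at day 9, and in DKO 3.47, 6.46 and 4.28 kb and 6.95, 7.76 and 7.13 kb. In both genotypes every day 9 library was above the day 0 ones, by 2.20 kb on average, with an adjusted p of 0.0218 in the exact permutation test. Hoxa4 and Hoxa6 lie inside the span of Hoxa3, so their rises share bases with it.

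Hoxa4 rose by 0.907 kb, from 0.634, 0.493 and 0.698 kb to 0.829, 1.45 and 1.31 kb in WT and from 0.556, 1.12 and 0.465 kb to 1.95, 2.21 and 1.66 kb in DKO. Hoxa6, a thoracic gene, rose by 0.399 kb, from 0.155, 0.337 and 0.28 kb to 0.455, 1.10 and 0.719 kb in WT and from 0.188, 0.623 and 0.411 kb to 0.646, 0.779 and 0.687 kb in DKO. Hoxd3 rose from 0.236, 0.301 and 0.582 kb to 0.81, 0.991 and 1.22 kb in WT and from 0.341, 0.854 and 0.582 kb to 1.40, 1.38 and 1.22 kb in DKO. Days 0 and 9 did not overlap within either genotype for these genes. Hoxa9 rose by 0.954 kb with an adjusted exact permutation p of 0.0379, but in DKO its highest day 0 library, at 9.843 kb, and its lowest day 9 library, at 9.842 kb, met.

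Hoxb9 was the gene that fell. It had 2.09, 2.58 and 2.44 kb in WT at day 0 and 1.27, 1.80 and 2.06 kb at day 9, and in DKO 1.85, 3.49 and 2.38 kb and 1.80, 1.70 and 1.33 kb. The mean fell by 0.815 kb (adjusted p of 0.0218, exact permutation test), and the days did not overlap in either genotype. The immune markers Ptprc, Adgre1 and Csf1r fell with it between the same days, and their part in this result was not tested.

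The steps between days were tested in the same way. From day 0 to day 3, 2 of 28 Hox genes fell and 0 rose, against 24.2% and 1.14% of 15006 genes. These were Hoxb3, by 1.68 kb, and Hoxb9, by 1.64 kb, both with an adjusted p of 0.0245 in the exact permutation test. Hoxb3, a hindbrain gene, had 5.74, 6.10 and 6.15 kb in WT at day 0 and 4.32, 5.67 and 3.52 kb at day 3, and in DKO 3.97, 6.94 and 5.11 kb and 3.06, 3.83 and 3.56 kb. Hoxb9 went to 1.58, 1.25 and 0 kb in WT, the last in the shallowest library, and 0.373, 1.17 and 0.602 kb in DKO. In both genes and both genotypes day 3 lay below day 0 without overlap, although per covered Mb the Hoxb3 difference turned its sign.

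From day 3 to day 6 and from day 6 to day 9 no gene of any kind passed, at 0% called in either direction, and with 400 relabellings the lowest adjusted p over all genes was 0.0578 and 0.0533 by the exact permutation test. At an unadjusted p under 0.05 there were 4 Hox genes and 3629 genes in all for the first step and 5 Hox genes and 4594 genes in all for the second. From day 6 to day 9 all 30 Hox genes had a higher mean over both genotypes, with a median of 0.358 kb against 0.298 kb over all genes. The mean covered length then went from 57.5 to 55.4 Mb in WT and from 30.8 to 64.5 Mb in DKO. Within WT the genes went both ways, as with Hoxc4 at -1.46 kb and Hoxb6 at 0.698 kb. In DKO the same genes differed by 4.40 and 3.68 kb.

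**Figure D4:**
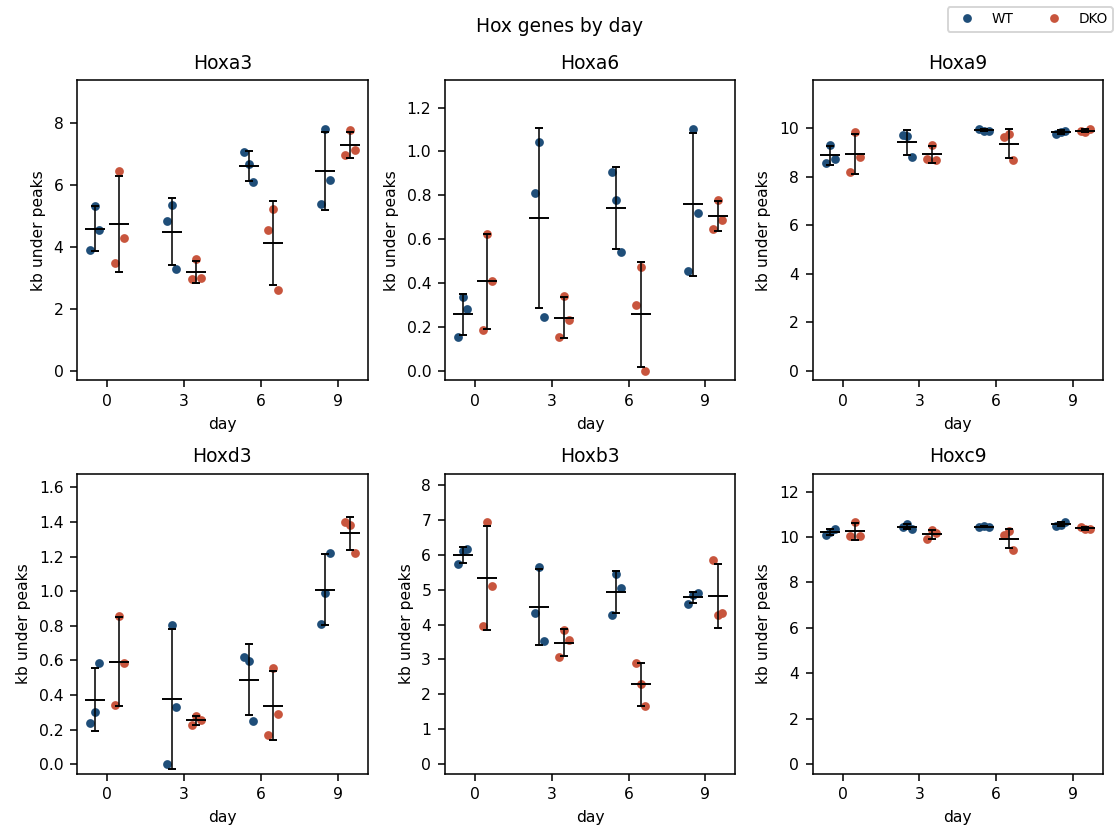
Length under H3K27ac peaks in kb (vertical axis) at days 0, 3, 6 and 9 (horizontal axis) for Hoxa3, Hoxa6, Hoxa9, Hoxd3, Hoxb3 and Hoxc9, 1 point for each library with WT and DKO in different colours and bars for the group mean and SD (n = 3). Hoxa3, Hoxa6 and Hoxd3 are higher in every day 9 library than in every day 0 library of the same genotype, and Hoxb3 is lower at day 3.

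Without DKO day 0 replicate 2, the library with wide peaks, 17 Hox genes were higher at day 9 than at day 0, against 29.4% of 15344 genes. Cell type markers moved between the same days: 6 of 7 adipocyte markers tested rose and 0 fell, and their summed length, between 10.3 and 12.7 kb in the WT libraries at day 0, was between 47.2 and 55.3 kb at day 9. In DKO it was between 12.99 and 27.6 kb at day 0 and between 74.2 and 79.5 kb at day 9. Of 8 preadipocyte and stromal markers tested, 1 rose and 3 fell. The markers were tested with all libraries of both days, where 13.7% of all genes rose and 12.7% fell. The part of these shifts in the Hox results was not tested.

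Few genes that work with Hox proteins passed the test between days 0 and 9, in which 13.7% of all genes rose and 12.7% fell. All 9 cofactors of the PBX, MEIS and PREP families, which bind DNA together with Hox proteins, had a peak in 24 of 24 libraries, and 1, Pbx4, rose from day 0 to day 9, by 1.76 kb. Of 12 Polycomb genes, 11 had a peak in every library. Of 8 Trithorax and demethylase genes, which oppose Polycomb, 1 rose, Kdm6b, an eraser of the Polycomb mark, by 1.17 kb. None of the genes in these lists passed the genotype test over the 4 days.

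Of 14 other positional factors tested, 4 rose by day 9 and 0 fell, where 13.7% of all genes rose and 12.7% fell. Tbx15, known from subcutaneous fat, rose by 5.07 kb, and Hand2 and Irx3 were among the others. Of the 3 CDX factors, which switch on Hox genes in the embryo, 1 had a peak, in 1 library. Of 12 genes near the clusters, at 6.75 to 563 kb from them, Hibadh beside HoxA and Mtx2 beside HoxD rose and Skap1 beside HoxB fell by day 9. Evx1 and Evx2, the homeobox genes next to the posterior ends of HoxA and HoxD, had a peak in 0 of 24 libraries.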

How the data were processed

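The 24 peak lists were made by the authors, who, per the labels, aligned reads to mm10 with BWA 07.17 after bcl2fastq 2.17 and cutadapt 1.18 and called peaks with MACS2 2.1.1.20160309 in each library. The deposited values are a fold enrichment (a ratio) at the summit and the −log10 of the p-value and of the q-value. They hold no read counts, so the count test of the study could not be repeated, and which of the 16 inputs, not analysed here, served each list was not given in the sources used here.

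Lengths under peaks, with an overlap of at least 1 bp, were summed over spans of the GENCODE M21 annotation (build GRCm38), and peaks were ranked on the −log10 q of their own list. Read heights were recovered from the p-value and fold columns, with 84.6% of values whole in WT day 3 replicate 3 and 100% in the others (tolerance 0.01). Genes with a peak in the libraries compared were tested by exact permutation of libraries within day or genotype, two-sided, with Benjamini-Hochberg adjustment over all of them. On simulated data 67% of 200 genes shifted by 1 kb were called between genotypes and 61.7% of 4000 between days 9 and 0. Members and gene lists were chosen with earlier results of these data known. Named genes were those past the test, the 3 smallest genotype p-values, genes without overlap at a day, and further members for their values, the last chosen after their values were seen. Alternatives were a stricter q, the top 20000 peaks, other spans, ±250 bp around summits, bp per covered Mb, best rank, leaving out libraries and a replicate block. The numbers of the replicates did not pair the libraries: 4 of 12 same-number correlations were over 0.1, as were 12 of 24 others. The paper describes the H3K27ac data as coming from 3 biological replicates. Nothing stated that these came from separate animals, so each p-value refers to relabellings of these libraries only. Python 3.11.15, numpy 2.4.6, pandas 2.3.3, scipy 1.17.1 and matplotlib 3.10.9 were used. Some genes of the lists are not reported here.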

Additional observations from a re-analysis of the deposited data

Results flagged for a closer look

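In Hoxa4 and Hoxc4 every DKO library was below every WT library at one day and above at day 9. The genes were picked for this, so the change between days was not tested independently of the choice. The DKO minus WT difference of Hoxa4 was -0.257 kb at day 3 and 0.739 kb at day 9, a change of 0.996 kb. Against day 6, at -0.564 kb, the Hoxa4 change was 1.30 kb. The Hoxc4 difference was -4.71 kb at day 6 and 1.15 kb at day 9, a change of 5.86 kb. Over all genes the median difference was -0.526 kb at day 6 and 0.211 kb at day 9, and the same turn without overlap was seen in 2.60% of genes from day 3 and 15.5% from day 6. Per covered Mb, Hoxa4 had means of 26.7 bp in WT and 30.0 bp in DKO at day 6, overlapping, and 21.3 and 30.0 bp at day 9, and Hoxc4 had 124 and 74.3 bp at day 6 and 102.7 and 105.7 bp at day 9, the last overlapping. On this scale neither gene turned without overlap between days 6 and 9.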

How the results depend on the processing

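Between genotypes over the 4 days, where 0 Hox genes passed, 1 passed with ±250 bp around summits (Hoxb5), and 4 passed in bp per covered Mb (Hoxb3, Hoxb5, Hoxb6 and Hoxc13), by best rank (Hoxa7, Hoxa9, Hoxa10 and Hoxb5) and, chosen after seeing the data, without DKO day 0 replicate 2. Leaving out each replicate number gave 0, and so did the replicate block, with 10 Hox genes at an unadjusted p under 0.05. For day 9 against day 0, where 7 passed, the count was 12 in bp per covered Mb. Without DKO day 0 replicate 2 it was 18, where 29.4% of all genes were higher. It was 3 with bases of 1 gene span only, 3 around summits and 0 with the top 20000 peaks. It was also 0 with a replicate block (smallest possible p 0.0312) or without 1 replicate number (0.0556, which cannot pass). For day 3 against day 0, where 2 passed, it was 7 in bp per covered Mb, 1 with 5 kb upstream, 1 by rank, and 0 around summits, with the top 20000 peaks, with the block or without 1 replicate number. Among these alternatives, shares of all genes are given only for leaving out DKO day 0 replicate 2. The other counts cannot be read as particular to Hox genes.

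In bp per covered Mb, genes lower in DKO without overlap numbered 9 (day 0), 4 (day 3), 4 (day 6) and 14 (day 9). With the top 20000 peaks they numbered 5 of 20 (day 3), 14 of 19 (day 6) and 1 of 20 (day 9). The share of all genes without overlap is not given here for that setting. Its DKO mean was lower in 67.4% of all genes at day 3, 84.7% at day 6 and 29.8% at day 9. Genes higher numbered 14 at day 6 in bp per covered Mb, and at day 9 2 with the top 20000 peaks, 1 in bp per covered Mb and 1 with bases of 1 gene span only. Genes without any peak numbered 19 with the top 20000 peaks and 18 with bases of 1 gene span only. Directions turned for Hoxa9 between days 9 and 0 around summits (-1.39, adjusted p 0.0759 by exact permutation, 0.0165 to 0.713 over alternatives), for Hoxb3 between days 3 and 0 in bp per covered Mb (1.36) and by rank (0.0465), and for the day 6 cluster totals in bp per covered Mb (HoxA 9.74, HoxB 0.346, HoxC 33.4). The causes were not tested. Of the other alternatives for single genes 83 left the call as it was, 57 ended it and 8 made one.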

Other observations

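Long non-coding genes were read apart from the coding members. Of those in HoxA, Gm29430 had a peak in 18 libraries and Gm15050 in 15, and Hoxa11os had one in 8, of which 6 were WT. In HoxB, Gm53 had one in 22 and Gm11536 in 24. In HoxD, Hoxd3os1, which spans the shared start of Hoxd3 and Hoxd4, had one in 23.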
